A study of Homo sapiens with 2 samples.

Results

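The regions described are the 562 intervals on chromosome 17 in a ChIP-seq list of EGR1 enrichment, taken as every row of the deposited list whose chromosome is 17. They made up 7.29% of the 7709 intervals in the list (95% interval 6.72 to 7.89%), and the other 21 autosomes held 7013. The cells were t-HESC, an immortalised human endometrial stromal cell line, kept in growth medium with serum and puromycin and given no treatment. There was 1 ChIP library for EGR1 and 1 input library from the line, without replicates, so no difference between conditions or cultures could be tested. Positions are on GRCh37. The authors gave each interval a summit, the point of highest signal, and a whole-number summit score of unstated unit. The score was used only to rank intervals within this list. Sequencing depth is unknown, and enrichment over the input was not analysed here.

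EGR1 is a transcription factor with zinc fingers, and its gene is one of the immediate early genes, switched on within minutes by serum, growth factors and stress. It binds GC-rich DNA, often near gene starts, and can raise or lower transcription. Stromal cells of the uterine lining use it during their change into decidual cells, which support an implanting embryo. Chromosome 17 is a small, GC-rich and gene-dense autosome. It carries the HOXB homeobox cluster, the clustered genes of type I keratins and of CC chemokines, and the genes of the cytokine-activated factors STAT3, STAT5A and STAT5B. Gene models and sequence on GRCh37 were not used here. The intervals below are therefore given by position, with no gene, exon or sequence assigned to them.

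All error ranges are 95% ranges that reflect counting error alone. They are exact Clopper-Pearson for shares, exact Poisson for counts and densities, exact conditional binomial for ratios and Newcombe for differences of shares. They treat neighbouring intervals as independent, which makes them too narrow. A difference whose range leaves out 0, or a ratio whose range leaves out 1, is larger than counting error would give for independent intervals. Where a range ends close to 0 or 1, it does not decide whether there is a difference. No p-value is given, because intervals of 1 library are not replicates.

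Chromosome 17 was the second densest autosome in EGR1 intervals. It had 6.98 intervals per Mb (6.41 to 7.58) over the 80.5 Mb between its first and last interval. The other 21 autosomes together had 2.61 per Mb (2.55 to 2.68), so chromosome 17 was 2.67 times as dense (2.45 to 2.91). Only chromosome 19 was denser, with 11.5 per Mb, and chromosome 17 had 0.608 times its density (0.543 to 0.681). Chromosome 22 followed with 5.85 per Mb, and the ratio of chromosome 17 to it was 1.19 (1.01 to 1.41). The ratio to chromosome 16, at 4.06 per Mb, was 1.72 (1.51 to 1.97). EGR1 intervals covered 234498 bp of chromosome 17, or 0.291% of its span, against 0.107% of the span of the other autosomes.

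The excess was smaller when counted per gene. The RefSeq gene table (assembly GRCh38.p14, used only to count the genes of each chromosome) lists 1169 protein-coding genes on chromosome 17 and 17957 on the other autosomes. Chromosome 17 thus had 48.1 EGR1 intervals per 100 protein-coding genes (44.2 to 52.2), and the other autosomes had 39.1. The ratio of these values was 1.23 (1.13 to 1.34), against 2.67 by length. Restricted to scores of at least 57 the ratio was 1.26, with a range of 0.948 to 1.64 that includes 1. By gene number chromosome 17 ranked 1 of 22 autosomes, but chromosome 13 lay at 47.9, chromosome 19 at 46.5 and chromosome 22 at 43.2 per 100 genes. Against them the ratios were 1.003 (0.841 to 1.20), 1.03 (0.924 to 1.16) and 1.11 (0.943 to 1.32), and all 3 ranges include 1. Ratios to single chromosomes further down the order were not taken. The order depended on which genes were counted. Per 100 genes of any kind in the table, chromosome 17 had 20.7 intervals and ranked 2, after chromosome 19 with 24.97, while chromosome 13 had 10.5. The lowest value by protein-coding genes was 34.7 per 100, on chromosome 11. Across the 22 autosomes, intervals per Mb and protein-coding genes per Mb had a Pearson r of 0.99 and a Spearman rho of 0.97, given as a description of 1 library. GC content, mappability and the copy number of chromosome 17 in these cells were not analysed.

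**Figure D1:**
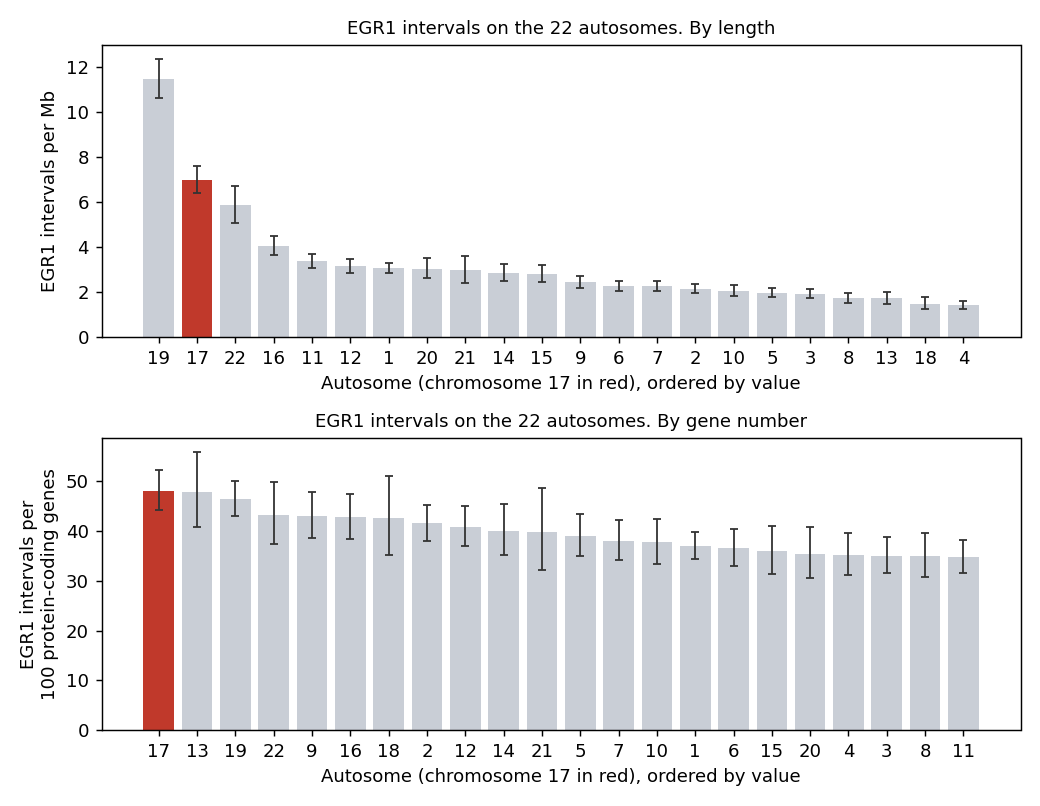
EGR1 intervals per Mb (upper panel) and per 100 protein-coding genes (lower panel) on each of the 22 autosomes, ordered by value, with chromosome 17 in red and exact Poisson 95% intervals as error bars. Chromosome 17 is second by length, at 6.98 per Mb, and has the highest value by protein-coding genes, at 48.1 per 100, with an error bar that overlaps those of chromosomes 13, 19 and 22.

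The arms of chromosome 17 did not differ in density beyond counting error. The arms were divided at 24 Mb, inside a stretch of 4.67 Mb with no interval (positions 20947023 to 25621052) that takes in the centromere. The short arm held 161 intervals on 23.5 Mb, or 6.85 per Mb (5.83 to 7.99). The long arm held 401 on 57.04 Mb, or 7.03 per Mb (6.36 to 7.75). The density of the long arm over the short arm was 1.03 (0.853 to 1.24). With the empty stretch left out of both lengths it was 0.919 (0.763 to 1.11), and both ranges include 1.

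The arms differed in score. The median summit score was 27 on the short arm (quartiles 22 and 41) and 24 on the long arm (quartiles 20 and 34). A score of 26 or more, the median of the whole list, was reached by 93 of 161 short-arm intervals, or 57.8% (49.7 to 65.5%). On the long arm it was reached by 181 of 401, or 45.1% (40.2 to 50.2%). The difference was 12.6 percentage points (3.48 to 21.4). The other autosomes lay between the arms at 51.3%. The long arm was lower than they were by a difference of -6.18 points (-11.12 to -1.15). The short arm's difference from them was 6.44 points, with a range of -1.37 to 13.9 that includes 0. Short-arm intervals also had a larger median width, 381 bp against 336 bp. At the upper end of the scores the arms were less distinct. A score of 57 or more was found in 13.04% of short-arm intervals and 9.48% of long-arm intervals, a difference of 3.57 points with a range from -1.87 to 10.1.

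**Figure D2:**
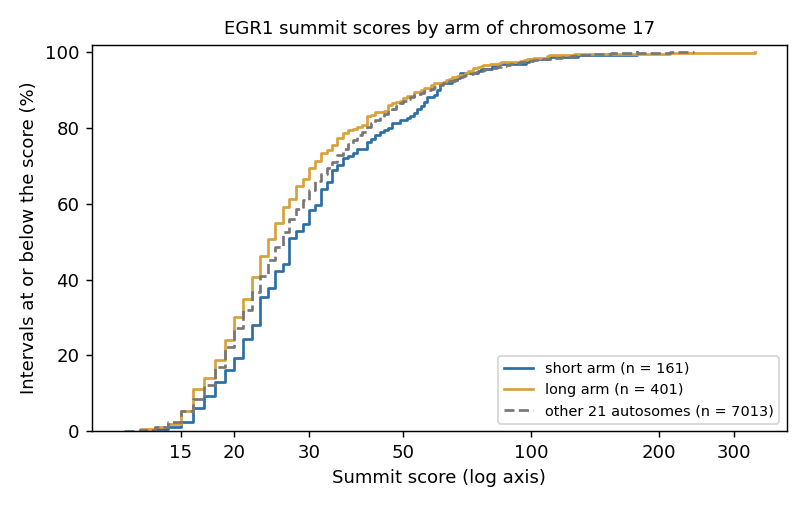
Cumulative share of EGR1 intervals (y axis, percent) at or below each summit score (x axis, log scale) for the short arm, the long arm and the other 21 autosomes. The short-arm curve lies to the right of the long-arm curve through the middle of the range, with medians of 27 and 24, and the curves meet near the top.

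Over the whole chromosome, the share of high scores did not differ from that of the other autosomes beyond counting error. Its median score was 25 (quartiles 20 and 35), against 26 (quartiles 20 and 37) elsewhere, and its median width was 344.5 bp, against 343 bp. A score of 57 or more was found in 59 of its intervals, or 10.5% (8.09 to 13.3%), and in 10.3% of the 7013 intervals of the other autosomes. The difference was 0.232 points (-2.16 to 3.12). A score over 100 was found in 10 intervals, or 1.78% (0.856 to 3.25%), against 2.20% elsewhere. Width and score rose together about as much on chromosome 17 (Spearman rho 0.64 across 562 intervals) as elsewhere (rho 0.64 across 7013). These coefficients are across intervals of 1 library and describe that list.

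A few sites on chromosome 17 reached the top of the list. It held 3 of the 20 highest-scored autosomal intervals, or 15% (3.21 to 37.9%). That range includes its 7.29% share of the whole list. The ranks were 1, 7 and 16, with ranks 7 and 16 shared with intervals of other autosomes. The highest, at chr17:49230557-49231499 in the long arm, had a score of 336 and a width of 943 bp, with its summit at 49230880. Its neighbours scored far lower. Within 500 kb of its summit there were 5 other intervals, 3 of them within 50 kb, with a median score of 19 and a highest score of 53. The one with 53 lay 31.6 kb to the lower side. On the other side came a single interval with a score of 21, 13.5 kb from the summit, and then a stretch of 3.80 Mb with no interval (positions 49244480 to 53045646). That stretch was the longest within an arm of chromosome 17.

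The next interval by score had no other within 50 kb. It lay at chr17:37212951-37213771, had a score of 212 and a width of 821 bp, and its nearest neighbours were 186 kb below it and 139 kb above it. Within 500 kb there were 15 others, whose scores had a median of 23 and a maximum of 71. By contrast, the next site, at chr17:7155165-7156056 in the short arm with a score of 177, stood in the densest megabase of the chromosome. It had 28 other intervals within 500 kb, 9 of them within 50 kb. Among the 28 were the intervals with the fourth and sixth highest scores of the chromosome. One, with a score of 129, lay at chr17:7210554-7211024, 55.3 kb above the summit. The other, with a score of 111, lay at chr17:7122979-7123416, 32.3 kb below it.

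**Figure D3:**
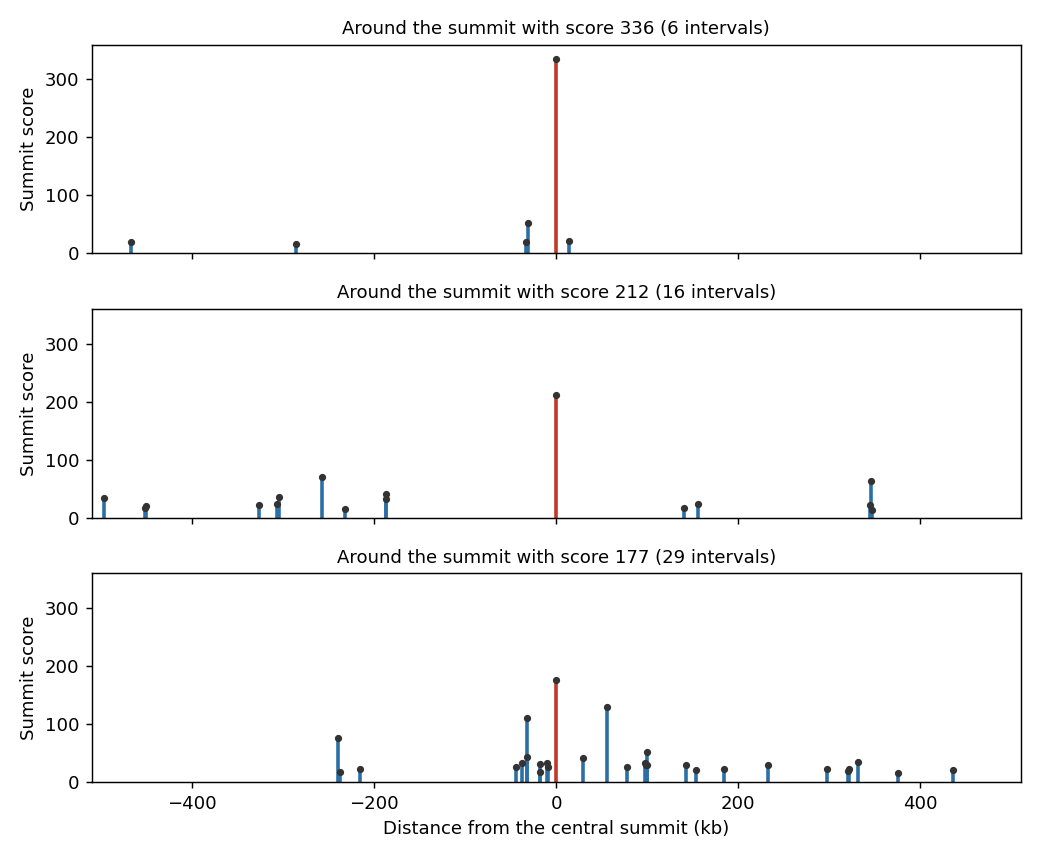
Summit scores (y axis) of all EGR1 intervals within 500 kb of the 3 highest-scored summits of chromosome 17, by distance from that summit in kb (x axis, lower coordinates to the left), with the central summit in red. The summit with a score of 336 has 5 others around it, that with 212 has 15 and that with 177 has 28, including scores of 129 and 111.

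The remaining sites of the 10 highest all lay in the long arm. The interval at chr17:47866144-47866768 had a score of 126 and no other within 50 kb. It was followed at 110 by chr17:48277684-48278926, which was 1243 bp wide and had 4 others within 50 kb, none above 30. A score of 109 was shared by chr17:62501559-62503149 and chr17:62971064-62971717. The first of this pair, at 1591 bp, was the widest interval of the chromosome and had no other within 50 kb. The tenth site, at chr17:66015854-66016464, had a score of 101. In the short arm, the 5 highest were completed by chr17:8126208-8126764 with a score of 99 and chr17:500325-500938 with 97, the interval nearest to the short-arm end. The 10 highest-scored intervals were 438 to 1591 bp wide, and 2 of them had a neighbour within 1 kb.

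EGR1 intervals of the short arm were most frequent in its outer part. The stretches described for both arms were picked after their counts were seen, and their ranges do not allow for that choice. In bins of 1 Mb, the densest bin of the short arm, 7000001 to 8000000, held 34 intervals (23.5 to 47.5) and the bin after it held 21 (13 to 32.1). These 2 Mb held 34.2% of the arm's intervals (26.9 to 42.0%). Their scores had a median of 29, and 7 of the 55 were 57 or more, a limit reached by 10.5% of all chromosome 17 intervals. The bin 1000001 to 2000000 held 20, with a median score of 27.5 and a highest score of 68. In all, the first 9 Mb held 113 of the arm's 161 intervals, or 70.2% (62.5 to 77.1%). The next 7 Mb, 9000001 to 16000000, held 11 intervals (5.49 to 19.7), with scores of at most 54. A separate rise followed at 17000001 to 18000000, with 16 intervals and a median score of 30.

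On the long arm the dense stretches were spread over its length. Near the centromere, 27000001 to 28000000 held 19 intervals, with scores up to 85. The 8 Mb from 36000001 to 44000000 held 95 (76.9 to 116), or 11.9 per Mb. The 3 Mb from 46000001 to 49000000 held 44, of which 21 lay in the last megabase. The stretch from 50000001 to 53000000 held 0 (0 to 3.69). From 54000001 to 68000000 there were 75 (59.0 to 94.0), or 5.36 per Mb, with scores up to 109. The stretch from 68000001 to 71000000 held 1, with a score of 37. The 8 Mb from 73000001 to 81000000 held 112 (92.2 to 135), or 14.0 per Mb. Within it, 79000001 to 80000000 held 30 (20.2 to 42.8), the most in any bin of the long arm. Their median score was 26, and 4 of the 30 scored 57 or more, against 10.5% over the chromosome.

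The outer parts of both arms together were rich in EGR1 intervals. The first 9 Mb and everything after 73 Mb made up 20.5% of the span and held 228 intervals, or 40.6% of the chromosome's total (36.5 to 44.8%). These stretches too were picked after their counts were seen.

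**Figure D4:**
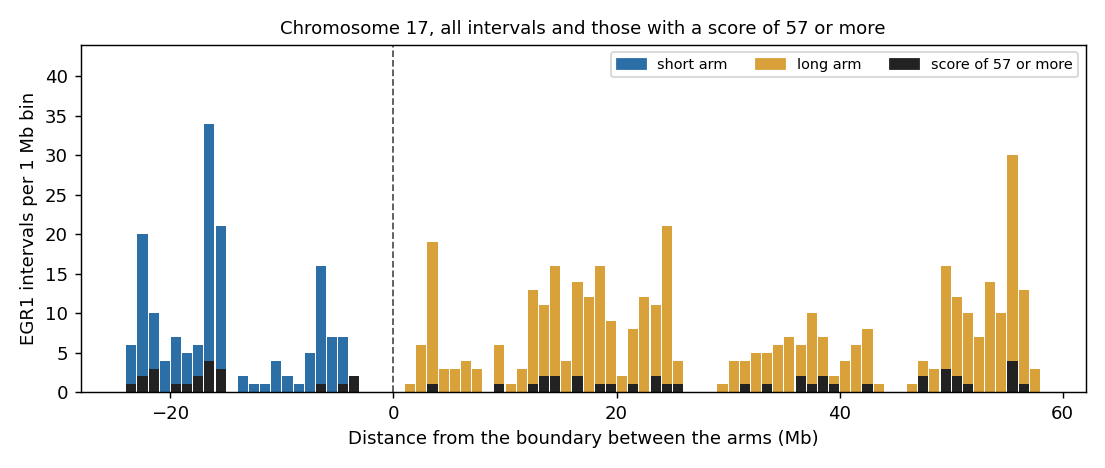
EGR1 intervals per 1 Mb bin of chromosome 17 (y axis) by distance from the boundary between the arms in Mb (x axis; negative values are the short arm), with intervals of score 57 or more in black. The tallest bins hold 34 intervals in the short arm and 30 in the long arm, and intervals of score 57 or more occur in both dense and sparse bins.

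Few megabases of chromosome 17 lacked an interval. Of its 82 bins, 11 held no interval (13.4%), the lowest share of the 22 autosomes. Chromosome 22 was close, with 5 of 34 (14.7%), as was chromosome 19, with 10 of 60 (16.7%). No ranges were taken for these shares, so the order among them was not tested. The highest was 51.0% on chromosome 13, counting bins from the first to the last interval. The median bin held 5 intervals. The densest 5% of bins (4 bins) held 18.9% of the intervals (15.7 to 22.3%), against 16.8% on chromosome 19, the lowest, and 38.5% on chromosome 11, the highest. Chromosome 17 also had more intervals per Mb than 20 of the other 21 autosomes, and the part of this in either share was not tested. The 10 stretches over 1 Mb long without an interval summed to 21.5 Mb, or 26.7% of the span. After those of 4.67 and 3.80 Mb, the longest was 3.26 Mb at positions 67323781 to 70587624.

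Scores were also set beside the number of intervals in the same megabase. In the 5 bins with 20 or more intervals the median score was 27 over 126 intervals (quartiles 23 and 34.75). In the 18 bins with 10 to 19 it was 24 over 235 (quartiles 19 and 34), and in bins with fewer than 10 it was 25 in both classes (1 to 4 and 5 to 9 intervals). The share with a score of 57 or more was 11.11% (6.21 to 17.9%) in the densest class and 9.72% (3.999 to 19.01%) in the sparsest. The differences between these classes were not tested.

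At finer scale, dense stretches of chromosome 17 differed in score. Within 100 kb, the largest number of summits was 12, reached by a short-arm and a long-arm stretch. In the short arm, 12 summits between 8028960 and 8126464 had scores of 19 to 99 with a median of 31, and they formed 11 separate sites when intervals at most 1000 bp apart were joined. In the long arm, 12 summits between 77752736 and 77810176 had scores of 15 to 25 with a median of 20, and they formed 5 sites. The whole megabase around the latter, 77000001 to 78000000, held 14 intervals and no score above 25. Another stretch, with 10 summits between 7110656 and 7184512, had a median score of 33.5 and included the site with a score of 177. The stretches overlapped in score but their medians lay on either side of the chromosome's median of 25.

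EGR1 intervals on chromosome 17 lay next to each other more often than elsewhere. Within 1 kb of a neighbour, measured edge to edge, were 194 of 562 intervals, or 34.5% (30.6 to 38.6%). On the other autosomes the share was 26.8% (25.8 to 27.8%), a difference of 7.73 percentage points (3.77 to 11.9). Chromosome 17 ranked 1 of 22 by this share, with chromosome 11 next at 33.2%. The difference from chromosome 11 was 1.33 points (-4.54 to 7.14), so these chromosomes could not be told apart. The difference from chromosome 19, which is denser but had 29.2%, was 5.29 points (0.0852 to 10.5). Both intervals of a close pair count in these shares, so the ranges are too narrow. Chromosome 19 was therefore not clearly told apart either. The arms of chromosome 17 had similar shares, 32.3% in the short arm and 35.4% in the long arm. The part of density in the difference from the other autosomes was not tested.

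**Figure D5:**
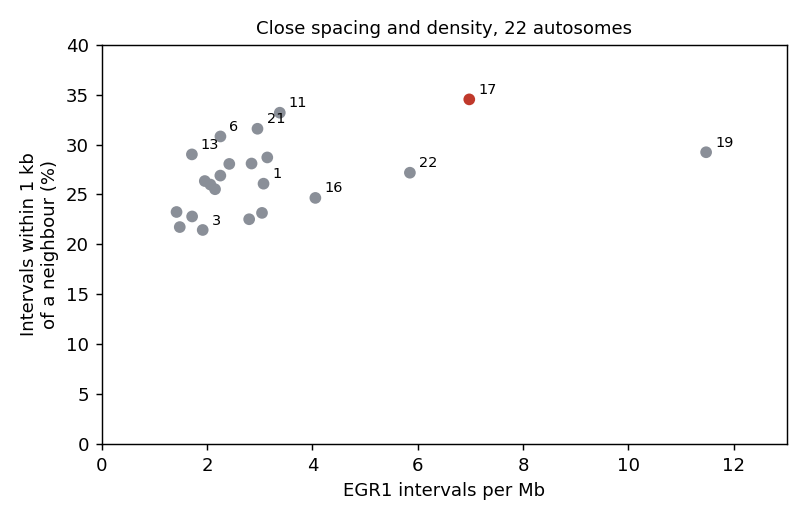
Share of EGR1 intervals within 1 kb of a neighbour (y axis, percent) against intervals per Mb (x axis), 1 point per autosome, with chromosome 17 in red. Chromosome 17 has the highest share, 34.5%, while the denser chromosome 19 lies at 29.2% and chromosome 11, at 3.38 per Mb, lies at 33.2%.

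Joined at 1000 bp, the 562 intervals formed 456 sites, of which 368 were single intervals, 75 had 2, 10 had 3, 1 had 4 and 2 had 5. Sites with several intervals made up 19.3% of the sites on chromosome 17 and 14.4% elsewhere, a difference of 4.89 points (1.41 to 8.86). They spanned a median of 1173 bp. In the 106 adjacent pairs at most 1 kb apart, the median gap was 369 bp on chromosome 17 (quartiles 198 and 529 bp), against 285 bp (169 and 501.5 bp) in 1015 pairs elsewhere. The median distance between their summits was 728 bp. Whether a pair is 1 broad enriched stretch divided by the peak caller was not tested.

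The largest of these sites held moderate scores. In the short arm, 5 intervals at chr17:1388229-1392012 had, from the lower coordinate, scores of 25, 43, 32, 23 and 27, with gaps of 81 to 760 bp. The interval with 43 was the highest of the site and the widest, at 648 bp. In the long arm, 5 intervals at chr17:77770760-77775083 had scores of 18, 15, 25, 22 and 18, with gaps of 351 to 958 bp. This site lies in the low-scored stretch named above. The only site of 4, at chr17:2303043-2306158 in the short arm, had scores of 42, 38, 60 and 17. It was the only one of the 3 to include a score of 57 or more.

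Counted per interval, high scores were less frequent among closely spaced intervals, but this did not hold per joined site. On chromosome 17, a score of 57 or more was found in 13 of the 194 intervals within 1 kb of a neighbour, or 6.70% (3.62 to 11.2%). It was found in 46 of the 368 that stood apart, or 12.5% (9.30 to 16.3%), a difference of 5.80 points (0.455 to 10.5). Both intervals of a close pair count here, so this range is too narrow. Its lower end is close to 0, so it does not decide whether there is a difference. The 13 each lay in a different one of the 88 sites with several intervals. Counted by site, a score of 57 or more was thus reached in 13 of 88, against 46 of the 368 single intervals. A site with several intervals has more than 1 score that can reach this limit. Per interval, the other autosomes also had fewer high scores among closely spaced intervals, by 2.61 points (1.04 to 4.08). The difference between chromosome 17 and the other autosomes was not tested.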

How the data were processed

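ChIP-seq of EGR1 was deposited for 1 t-HESC library as 2 lists, the intervals and their summits. Both give positions in bp (unit: other). The build GRCh37.p2 and the tools BWA, MACS and MACS2 2.1.0 are named, per the submitters' processing notes. Their options, filters, duplicate handling and threshold are not stated there. The authors deposited a score per summit whose unit is not stated. Adapter-ligated fragments were size-selected and amplified by PCR, per the labels' protocols. The input library was not analysed here, and depth is unknown.

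Interval starts were read as BED starts and printed 1-based, while summit positions were used and printed as deposited. Chromosome length is the span from the first to the last interval. Bins of 1 Mb count summits. The arm boundary of 24 Mb is the band boundary of GRCh37. Score limits of 26 and 57 are the median and 90th percentile of the list. The intervals named are the 10 highest-scored, the 5 highest per arm, the widest, sites of 4 or more and the longest empty stretches. Gene assignment and the motif at summits, both planned, need GRCh37 models and sequence and were not done. The intervals and measures were chosen with earlier results of these data known. Binning and joining were tested on simulated data. The Poisson and ratio ranges were tested only on simulated independent counts, and the ranges for shares and differences were not tested. The tools were numpy 2.4.6, scipy 1.17.1, statsmodels 0.14.6, pandas 2.3.3 and matplotlib 3.10.9 under Python 3.11.15.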

Additional observations from a re-analysis of the deposited data

How the results depend on the processing

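Alternatives for the gene-based ratio, for the arm scores and the score limit on close spacing were chosen after seeing the data. The density of chromosome 17 over the other autosomes was 2.53 to 2.89 under the 4 alternatives run. Its intervals numbered 274 when scored 26 or more and 59 when scored 57 or more, by construction, and 456 when joined. The long arm over the short arm was 0.802 (0.621 to 1.04) for scores of at least 26 and 0.745 (0.427 to 1.34) for scores of at least 57, with ranges that include 1. The densest 5% of bins held 18.3% of intervals with bins shifted by 500 kb, 22.2% with 500 kb bins and 14.2% with 2 Mb bins. They held 23.7% both for scores of at least 26 and of at least 57. The part of the smaller numbers of intervals in these last 2 shares was not tested. Scores at or above the 75th percentile of 37 were held by 23.1% (other autosomes 25.5%), and at or above the 95th percentile of 76 by 4.27% (5.13%). Neighbours lay within 500 bp for 26.2% (other autosomes 20.5%), within 2000 bp for 40.4% (30.6%), and within 1 kb for 18.6% among intervals scored 26 or more (13.2%). Per gene, the ratio to the other autosomes was 1.595 with all genes of the table, and 1.17 to 1.26 under the other 4 alternatives. At a score of 57 or more its range was 0.948 to 1.64, which includes 1. The short-arm median score stayed 3 above the long arm's under both alternatives run. No paired analysis was possible because the labels number no replicates. Whole chromosome lengths, transcription starts and motifs at summits were not run, because they need GRCh37 references. With 1 library and no read depth, all values describe this library.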

Other observations

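The EGR1 core motif GCGNGGGCG was searched on both strands of RefSeq promoters (GRCh38.p14, 300 bases each). With G at the open position it overlaps GC boxes bound by SP1. It was found in 215 of 1639 promoters on chromosome 17, or 13.1% (95% interval 11.5 to 14.8%). On 20 other autosomes (chromosome 8 was not used here) it was found in 2978 of 32086, or 9.28% (8.97 to 9.60%), a difference of 3.84 percentage points (2.25 to 5.59). The highest share among those 20 was 11.3%, on chromosome 16. These promoters include those of noncoding genes and were not matched to the intervals, so the share describes the chromosome's promoters and not its EGR1 intervals.

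Summit positions on chromosome 17 were multiples of 32 bp in 448 of 562 cases, or 79.7% (76.1 to 83.0%), and in 77.1% of cases on the other autosomes.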
